A study of Mus musculus with 4 samples.

Results

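Fmr1nb, Calml4, Spesp1, Igsf23, Ceacam20, Apobec1, Mlana, St8sia1 and Rps6kl1 were described in mouse embryonic stem (ES) cells that differ in Sall4, a zinc finger transcription factor of pluripotent cells. They are 9 of the 18193 genes that have a probe set of their own on the array, and 14 probe sets read them. They were chosen by their measured genotype differences, because their signals were lower on the arrays labelled Sall4-null, or because they were thought to lie beside such a gene. The genotype values below therefore describe the choice and carry no test.

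RNA came from 4 cultures of E14.1 ES cells, with 1 array each and no replicate arrays. The heterozygous cells (Sall4 flox/-, line HET18) and the cells labelled null (Sall4 delta/-, line KO1) were grown on gelatin without feeder cells, or on blasticidin-resistant fibroblasts as feeders. Every culture had medium with leukaemia inhibitory factor and blasticidin. All the cells carried a blasticidin-resistance gene inserted at Oct3/4, which selects cells that express Oct3/4, also in the heterozygous controls. Each genotype was 1 line, so line and genotype cannot be told apart. Sall4 itself did not read lower on the arrays labelled null: its brighter probe set was at 1126.5 in heterozygous and 1670.5 in labelled-null cells without feeders, and at 780.8 and 1452.4 on feeders. The labels do not say which part of the gene was deleted, so it is the labels alone that set the direction between genotypes.

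All 12 of 12 ES cell markers had a signal above the low-signal filter on at least 1 array, and their summed signal lay between 17812 and 23713. They were on the whole lower on the labelled-null arrays, with a median log2 difference of -0.44 without feeders and of -0.26 on them. By limma 0 of 12 were called for genotype, and 7 of 12 had an unadjusted p under 0.05, where 12.3% of all tested genes did. Fgf4, a growth factor of ES cells, was at least 2-fold lower in both conditions, at 400.5 and 103.3 without feeders, then 516.3 and 167 on feeders. The part of these markers in the differences below was not tested. Pou5f1, which encodes Oct3/4, read 1284, 977, 1112 and 1187 on the heterozygous and labelled-null arrays without feeders and the same pair on feeders. Fibroblast markers, over 24 of 25 listed genes, summed to 4842 and 10772 on the heterozygous and labelled-null arrays without feeders. With feeders they summed to 23197 and 30781. Without feeders the largest terms were Vim (1730.3 and 4448.5), Fn1 (1350.8 and 1835.4), Acta2 (732.9 and 1958.4) and Tagln (657.3 and 1491.9). Of the other markers, Col3a1 read 19.2 and 243.7 there, but Col1a2 38.4 and 36.2 and Thy1 20.8 and 15.7. The source of this signal in cultures without feeders was not tested. In such bulk RNA, fewer cells of a type and less RNA per cell cannot be told apart.

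The 9 genes have different known roles. Fmr1nb is an X-linked gene of the cancer/testis kind, meaning that normal expression is mostly in the testis while some tumours express it, and Spesp1 encodes a protein of the equatorial segment of the sperm head. Calml4 encodes a calmodulin-like protein of the EF-hand family. Ceacam20, a gene of the carcinoembryonic antigen family, and Igsf23 both encode membrane proteins with immunoglobulin domains. Apobec1 encodes the cytidine deaminase that edits apolipoprotein B messenger RNA in the intestine. Mlana encodes a melanosome protein, St8sia1 the sialyltransferase that makes the ganglioside GD3, and Rps6kl1 a protein related to the ribosomal S6 kinases.

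Both pairs set side by side as genome neighbours lie head to head on opposite strands, but only one pair is close. In the RefSeq gene table (GRCm38.p6), Igsf23 (chr7:19937305-19953654) and Ceacam20 (chr7:19965352-19991113) were 11.7 kb apart with 1 pseudogene between them. Spesp1 (chr9:62270729-62282179) and Calml4 (chr9:62857472-62875921) were 575 kb apart, with 13 genes of the table between them, 6 of them protein-coding. Calml4 and Spesp1 are thus not adjacent genes. The RefSeq promoter table held windows for 8 of the 9 genes, with 2 start sites for Igsf23. Upstream bases outside the annotated gene are printed for the close pair, for Spesp1 and for Fmr1nb, the gene with the largest drop, and 30 bases around a motif match for the inner start site of Igsf23, which lies within the gene. The window of Calml4 also lies within its gene and is not printed. The pseudogene between the close pair, Rpl7a-ps8 (chr7:19953764-19954623), overlaps the stretch printed for the outer start site of Igsf23. All run 5′ to 3′ on the gene's own strand, and capitals mark the motif match.

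Igsf23, inner start site, chr7:19950794-19950823, minus strand: tatcgagtTGACCTTTGACCTcagtcccgt
Igsf23, outer start site, chr7:19953655-19953904, minus strand: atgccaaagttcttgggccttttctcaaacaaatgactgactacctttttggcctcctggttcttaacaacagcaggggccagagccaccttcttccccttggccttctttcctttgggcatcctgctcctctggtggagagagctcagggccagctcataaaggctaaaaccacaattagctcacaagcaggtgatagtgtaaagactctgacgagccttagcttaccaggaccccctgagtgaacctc
Ceacam20, chr7:19965162-19965351, plus strand: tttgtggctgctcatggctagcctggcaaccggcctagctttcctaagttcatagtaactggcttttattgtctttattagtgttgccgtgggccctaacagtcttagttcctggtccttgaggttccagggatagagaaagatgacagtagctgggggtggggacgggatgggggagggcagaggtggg
Spesp1, chr9:62282180-62282429, minus strand: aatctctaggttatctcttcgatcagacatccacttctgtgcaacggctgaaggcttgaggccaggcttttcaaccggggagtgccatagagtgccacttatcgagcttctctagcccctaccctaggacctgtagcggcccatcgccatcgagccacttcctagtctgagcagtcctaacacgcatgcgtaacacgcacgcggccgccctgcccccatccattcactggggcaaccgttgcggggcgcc
Fmr1nb, chrX:68761589-68761838, plus strand: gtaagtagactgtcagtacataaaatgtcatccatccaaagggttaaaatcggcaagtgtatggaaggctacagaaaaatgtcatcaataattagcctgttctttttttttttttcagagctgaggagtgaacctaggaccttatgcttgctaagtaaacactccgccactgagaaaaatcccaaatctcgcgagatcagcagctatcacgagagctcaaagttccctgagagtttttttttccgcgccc

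The windows searched ran from 250 bases before to 50 bases after each start site, on both strands. ATATT, a core of the AT-rich motif known for SALL4, was in 0 of the 9 windows of these genes and in 25.3% of all 32851 windows. The octamer ATGCAAAT of OCT factors (1.74% of all windows), the E-box CACGTG (7.15%) and the cyclic AMP element TGACGTCA (1.79%) were also in 0 of 9. AAGGTCA, bound by the nuclear receptor ESRRB, was in 1 of 9 windows and in 4.72% of all. That match began 72 bases before the inner start site of Igsf23, on the other strand. It overlaps a longer direct repeat, AGGTCA followed by any base and AGGTCA again, a form known to bind nuclear receptor dimers. The repeat was in 1 of 9 windows and in 13 of all 32851, and it was searched for after the sequences had been read. The upstream 250 bases held 16 CpG dinucleotides in Spesp1, 14 in St8sia1, 8 in Calml4, 7 in Fmr1nb and in Apobec1, and 5 in Rps6kl1. They held 4 and 1 at the inner and outer start sites of Igsf23, and 3 in Ceacam20. The median over all windows was 6.

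The signals are MAS5 values on a linear scale. Differences and folds were taken on log2(signal + 4.6), which shrinks the folds of weak signals, with the brightest probe set standing for each gene. Genes with a mean under a signal of 9.46 on that scale were left out, and all 9 genes passed. A gene counted as lower when it was at least 2-fold lower on the array labelled null and the brighter array of the pair exceeded the median signal of 17.1. All 9 met this without feeders, where 2.96% of 12485 tested genes did, and all 9 on feeders, where 2.1% did. Both labelled-null arrays lay below both heterozygous arrays in 8 of 9, against 17.1% of tested genes. All 9 met the 2-fold rule in both conditions, against 0.785% of tested genes, a count that the choice of the genes fixes. Their median log2 difference was -2.35 without feeders and -2.48 on feeders, and that of all tested genes was 0.0029 and 0.0078.

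**Figure D1:**
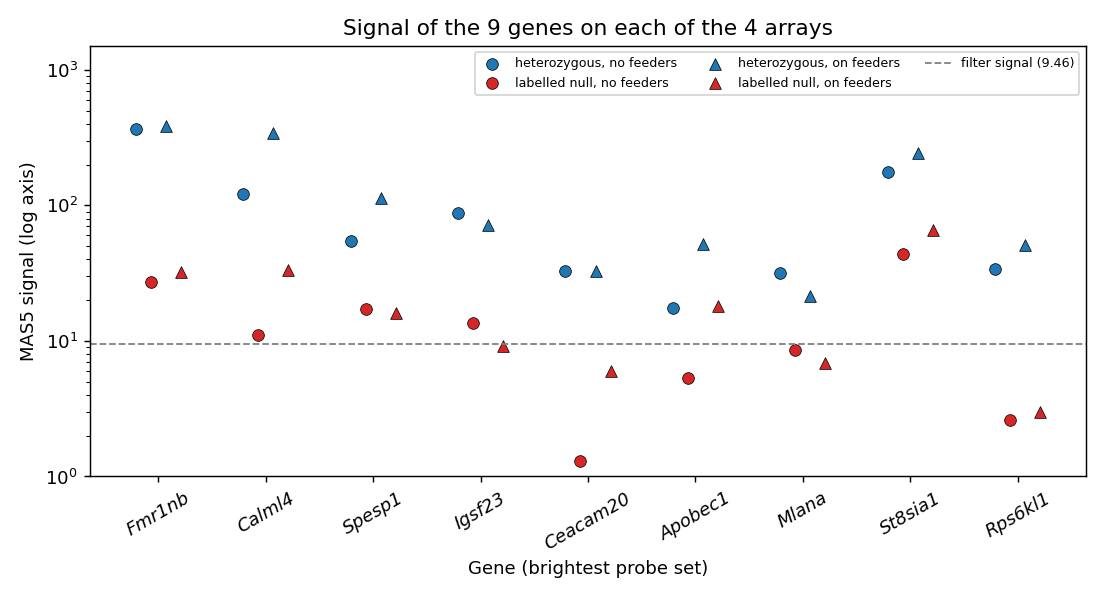
MAS5 signal (log axis) of the brightest probe set of each of the 9 genes on the 4 arrays, blue for heterozygous and red for labelled-null cells, circles without feeders and triangles on feeders; the dashed line is the filter signal of 9.46. In 8 genes both red points lie below both blue points, while in Apobec1 the labelled-null array on feeders (18.1) lies just above the heterozygous array without feeders (17.6).

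Fmr1nb had the largest drop. Probe set 1434739_at read 369 in heterozygous and 27.4 in labelled-null cells without feeders, then 382.4 and 32.3 on feeders. Both heterozygous arrays were high and both labelled-null arrays low, with almost the same values in the 2 feeder conditions. On the offset scale this was 11.7-fold and 10.5-fold lower, rank 3 and rank 4 from the lowest of all tested genes. The labelled-null signals stayed above the median of all probe sets, with 58.0% and 59.3% of the probe sets of their arrays below them.

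The other X-linked cancer/testis genes were mostly dim. Of 26 listed, 9 had a probe set of their own, among them Zfy2, which is Y-linked, and 2 were bright enough to be tested. Mageb16, a gene of the MAGE family, was the 1 of 2 that passed the 2-fold rule in both conditions, where 0.785% of all tested genes did. It read 697.2 and 247.1 without feeders, then 516.1 and 202 on feeders. Tex11, the other tested gene, read 16.1 and 16.7 without feeders, then 17.0 and 5.4 on feeders. For the genotype term of Mageb16, limma gave a log2 difference of -1.41 with an adjusted p of 0.0892 over all genes, which did not pass.

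Calml4 was low on the labelled-null arrays and high on feeders. Probe set 1424713_at read 121.8 in heterozygous and 11 in labelled-null cells without feeders, then 344.4 and 33.1 on feeders. Groups by genotype did not overlap, and within each genotype the array on feeders was the higher one. The fold was 8.10 without feeders and 9.26 on feeders, and with the median signal as offset the log2 difference without feeders shrank from -3.02 to -2.31. The signal gained on feeders was 222.6 in heterozygous and 22.1 in labelled-null cells. Of 4 calmodulin genes listed beside it, 1 had a probe set of its own, Calml3, with a signal of at most 5.6 on each array.

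Spesp1, set beside Calml4, differed from it in how it varied with feeders. Its brighter probe set, 1420366_at, read 54.5 and 17.3 without feeders, then 113.3 and 16.1 on feeders. Only the heterozygous array on feeders was above 100, and both labelled-null arrays were alike. The drop was thus 2.70-fold without feeders and 5.70-fold on feeders. With the mean of both probe sets the log2 differences shrank from -1.43 to -0.29 and from -2.51 to -1.34. The other probe set for the same accession, 1449837_at, was between 0.8 and 5.2 on all arrays, and without feeders it was higher on the labelled-null array. It was the 1 of 14 probe sets that was not lower on the labelled-null array in both conditions.

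Between Calml4 and Spesp1, 5 genes had a probe set and 4 were tested, and 0 of these passed the 2-fold rule. Cln6, a lysosomal disease gene next to Calml4, read 76.8 and 81.0 without feeders, then 94.3 and 54.3 on feeders. Fem1b read 1676 and 1978 without feeders, then 1419 and 1341 on feeders, and Coro2b 15.5 and 18.4, and 17.9 and 24.8. Anp32a, the first measured gene beside Spesp1, went the other way from it, at 159.1 and 246.6 without feeders, then 545.1 and 939.1 on feeders. Gm20346 was under the filter.

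Igsf23 and Ceacam20, the close pair, were both low on the labelled-null arrays. For Igsf23 the brightest of 3 probe sets, 1438074_at, read 87.8 in heterozygous and 13.5 in labelled-null cells without feeders, then 71.8 and 9.1 on feeders. The groups did not overlap, and the folds were 5.10 and 5.58. With the median signal as offset the log2 differences shrank from -2.35 to -1.78 and from -2.48 to -1.76. Its second probe set, 1430890_at, read 19.2 and 9.7 without feeders, then 40.5 and 8.6 on feeders, with folds of 1.66 and 3.42. The third, 1444182_at, read 11.3 and 1.1, and 5.6 and 1.9. All 3 were lower on the labelled-null array of each pair, but the size of the drop differed between them.

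Ceacam20 (1430383_at) read 32.9 on each heterozygous array, and 1.3 without feeders and 6.0 on feeders in labelled-null cells. Both labelled-null signals lay under the filter signal, so the folds of 6.36 and 3.54 depend on the offset. With the median of all signals as offset the log2 differences shrank from -2.67 to -1.44 and from -1.82 to -1.11. In their pattern over the 4 arrays, Igsf23 and Ceacam20 differed by a root mean square of 0.46 on the log2 scale after centring each gene, the 8th smallest of the 36 pairs among the 9 genes. Calml4 and Spesp1 differed by 0.76, the 25th smallest.

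In the CEACAM family, which includes the pregnancy-specific glycoprotein (Psg) genes, 17 of 25 listed genes had a probe set and 6 were tested. None of the 6 was 2-fold lower or higher in both conditions, and limma called 0 of 6 for genotype, with 1 at an unadjusted p under 0.05, as for 12.3% of all tested genes. Ceacam1, the brightest of them, read 76.6 and 87.5 without feeders, then 67.7 and 137.4 on feeders, and Psg23 56.3 and 38.8, and 29.8 and 47.8. Ceacam10 read 30.0 and 15.4, and 18 and 8.5. Of 10 other Igsf genes 6 were tested and 0 passed the 2-fold rule, with Igsf3 at 151.7 and 141.2 without feeders, then 165 and 169.1 on feeders. Limma called 0 of those 6, and 0 had an unadjusted p under 0.05.

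Apobec1 had the smallest drop without feeders and the most overlap. Probe set 1451755_a_at read 17.6 in heterozygous and 5.3 in labelled-null cells without feeders, then 52.0 and 18.1 on feeders. The labelled-null array on feeders was as high as the heterozygous array without feeders, so the groups overlap when the feeder condition is set aside. The folds were 2.24 and 2.49. With the median signal as offset the log2 differences were -0.63 and -0.97, under the 2-fold line in both conditions.

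Among deaminases and editing partners, 8 of 9 listed genes had a probe set and 5 were tested, with a median log2 difference of -0.89 without feeders and 0.012 on feeders. Rbm47, an RNA-binding cofactor of APOBEC1 editing, read 207.8 and 71.6 without feeders, then 163.1 and 87.7 on feeders. Apobec3, a deaminase that restricts retroviruses, read 320.5 and 170.4, and 342.3 and 196. Neither passed the 2-fold rule in both conditions. Limma called 0 of 5 for genotype, with 2 at an unadjusted p under 0.05 (12.3% of all tested genes), and both genes had an adjusted p of 0.168. Syncrip, an RNA-binding protein gene, read 786.3 and 835.4 without feeders, then 573.8 and 671.9 on feeders, and Celf2 75.0 and 148.5, and 151 and 152.3. A1cf, which encodes the classical editing cofactor, was under the filter at 6.4 to 11.3.

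The chromosome 6 neighbourhood of Apobec1 (chr6:122577792-122603024) holds genes of pluripotent cells. Gdf3, a TGF-beta family ligand whose gene lies 2.38 kb away, read 613.1 and 402.6 without feeders, then 493 and 386.7 on feeders. Dppa3, a maternal factor 23.4 kb away, read 219.2 and 29.5, and 251.8 and 68.4. Nanog, a core pluripotency factor 104.5 kb away, read 1745 and 1232, and 2069 and 1394. Each of the 3 was lower on both labelled-null arrays, with log2 differences of -0.60 and -0.35 for Gdf3, -2.71 and -1.81 for Dppa3, and -0.50 and -0.57 for Nanog. Limma passed none of the 3 for genotype over all genes, with adjusted p-values of 0.304, 0.107 and 0.152. On the other side Mfap5 read 26.8 and 13.8 without feeders, then 130.3 and 144.1 on feeders.

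Over all 9 genes, the 3 nearest measured genes on each side gave 47 other genes, of which 32 were tested. Their median log2 difference was 0.068 without feeders and -0.016 on feeders. Dppa3 was the 1 of 32 that was at least 2-fold lower in both conditions, and 0 were 2-fold higher, where 0.785% and 0.328% of all tested genes were. Without feeders alone, Nlrp9b, 0.28 kb from Ceacam20, read 33.3 and 12.2, and 9930021J03Rik beside Mlana 18.3 and 6.1. On feeders they read 18.5 and 14.4, and 9.7 and 6.6. Pgf, a placental growth factor gene beside Rps6kl1, was 2-fold lower only on feeders, at 25.4 and 6.9, against 11.7 and 16.9 without feeders; differences between the conditions were not tested. By limma 0 of the 32 differed by genotype over all genes (0.032% of tested genes did), and 4 had an unadjusted p under 0.05, where 12.3% of all tested genes did. Those 4 were Anp32a, Dppa3, Gdf3 and Nanog.

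**Figure D2:**
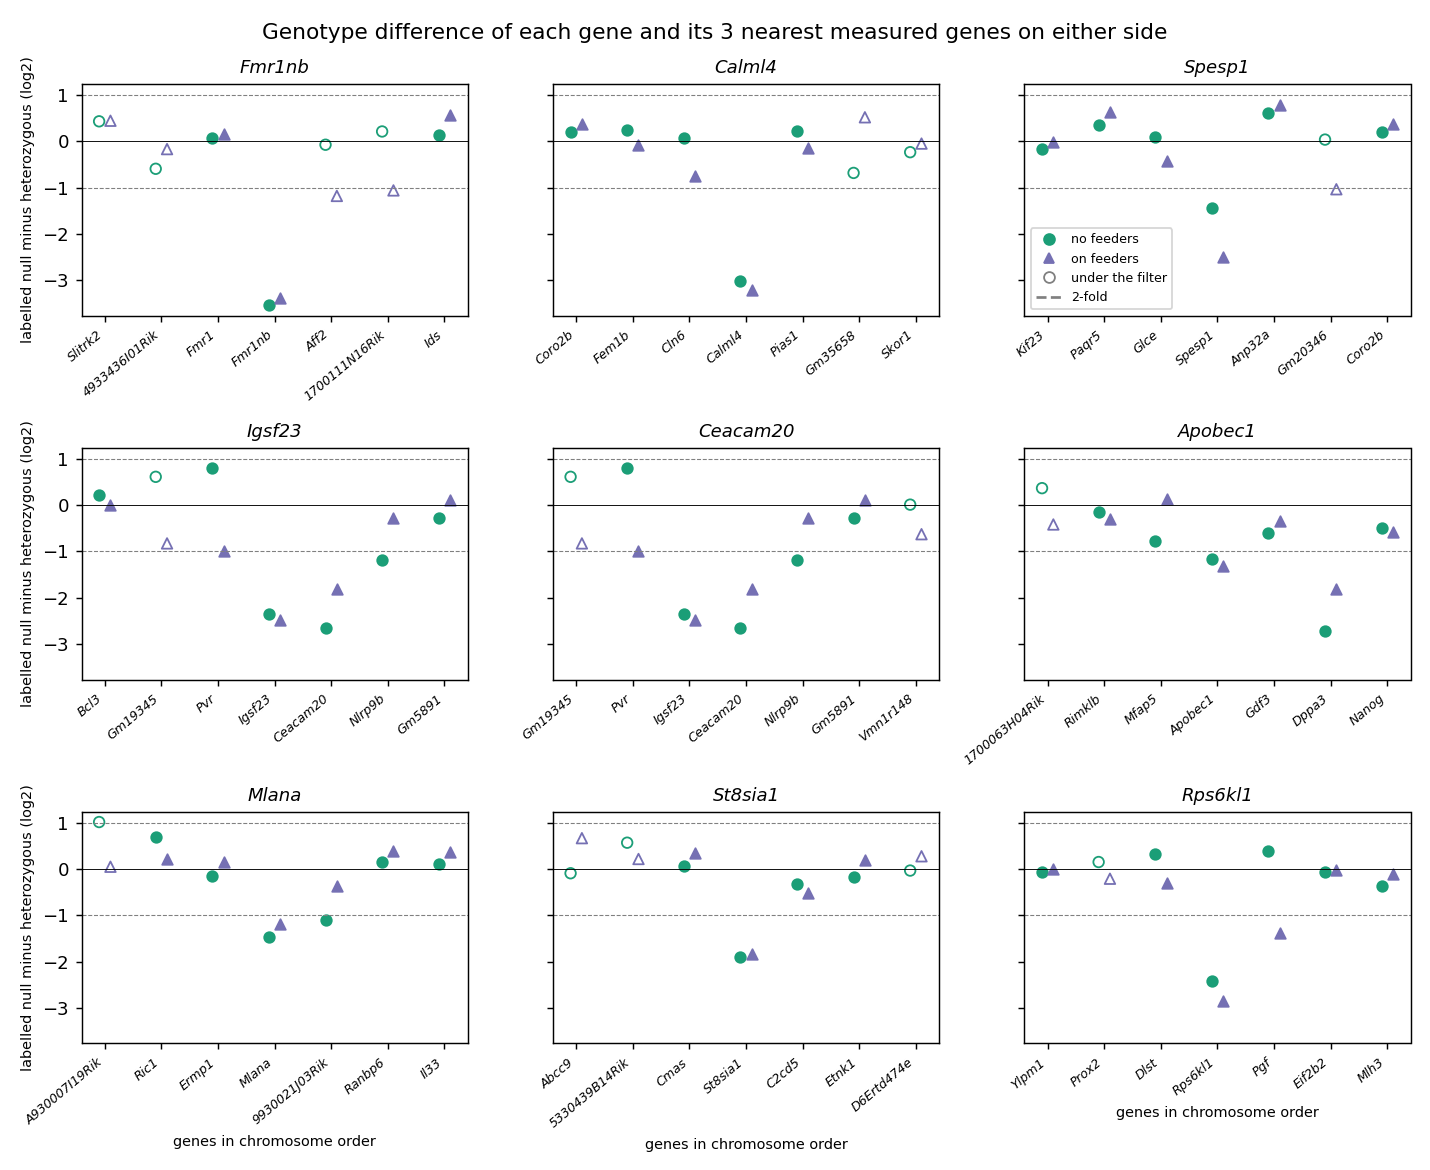
Log2 difference, labelled null minus heterozygous, of each of the 9 genes (centre of its panel) and its 3 nearest measured genes on either side in chromosome order, with circles for the pair without feeders and triangles for the pair on feeders; hollow points are under the filter and dashed lines mark 2-fold. Apart from Igsf23 beside Ceacam20, Dppa3 beside Apobec1 is the 1 neighbour with both filled points past the lower line.

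Mlana (1430635_at) read 31.7 in heterozygous and 8.6 in labelled-null cells without feeders, then 21.6 and 6.9 on feeders. The groups did not overlap, but both labelled-null signals lay under the filter signal. The folds were 2.75 and 2.28, and with the median signal as offset the log2 differences were -0.93 and -0.69, short of 2-fold. Pmel, which encodes the fibril protein of the melanosome, also passed the 2-fold rule in both conditions, at 74.2 and 27.0 without feeders, then 83.8 and 37.2 on feeders. It was the 1 of 6 tested melanocyte markers to do so, where 0.785% of all tested genes did. For its genotype term limma gave an adjusted p of 0.161. The 6 markers had a median log2 difference of -0.04 without feeders and -0.60 on feeders. By limma 0 of 6 were called for genotype, with 2 at an unadjusted p under 0.05 (12.3% of all tested genes). Of the other tested markers, Mitf read 52.2 and 38.6 without feeders, then 147 and 77.5 on feeders. Kit read 242.9 and 246.1, and 480.7 and 312.3. Slc45a2, Oca2 and Sox10 had signals of at most 18.1, 16.1 and 17.9. The defining pigment enzyme genes Tyr, Tyrp1 and Dct had signals of at most 12.7, 5.0 and 8.2 on each array.

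St8sia1 was low with all of its probe sets. The brightest of 3, 1455695_at, read 176.8 in heterozygous and 44.1 in labelled-null cells without feeders, then 244.4 and 65.5 on feeders. The others read 83.3 and 26.2, and 80.7 and 38.9 (1419694_at), and 87.1 and 39.8, and 103.5 and 48.5 (1419695_at). In each of the 3 the groups did not overlap, and all 4 values of the brightest stayed well above the filter. Its folds were 3.72 and 3.55, while those of 1419694_at were 2.85 and 1.96 and those of 1419695_at 2.07 and 2.04.

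All 17 other genes listed for ganglioside synthesis and the St8sia family had a probe set, and 15 were tested. Those 15 had a median log2 difference of 0.14 without and 0.066 with feeders, and 0 were 2-fold lower or higher in both conditions. Limma called 0 of 15 for genotype, with 4 at an unadjusted p under 0.05 (12.3% of all tested genes). B4galt6, a lactosylceramide synthase gene, read 371.9 and 400.1 without feeders, then 434 and 323.3 on feeders. Ugcg, which encodes the enzyme of the first glycosylation step, read 109.9 and 194, and 179.1 and 240. St8sia6, another sialyltransferase of the same family, read 76.0 and 140.8, and 132.6 and 313, the opposite direction from St8sia1, with a limma adjusted p of 0.161 that did not pass.

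Rps6kl1 was near the bottom of the scale on both labelled-null arrays. Its probe set 1426466_s_at, of the type that can bind several related transcripts, read 33.8 in heterozygous and 2.6 in labelled-null cells without feeders, then 50.7 and 3.0 on feeders. The groups did not overlap. The folds of 5.33 and 7.28 depend on the offset, and the log2 differences fell in size from -2.42 to -1.37 and from -2.86 to -1.75 with the median signal as offset. Of 10 genes listed for the S6 kinase family 6 had a probe set and were tested, and 0 passed the 2-fold rule in both conditions. Among these 6 was Rps6, which encodes ribosomal protein S6 and is not a kinase gene. Limma called 0 of 6 for genotype, with 2 at an unadjusted p under 0.05 (12.3% of all tested genes). Rps6ka6 read 1060 and 655.5 without feeders, then 876.9 and 847.6 on feeders, and Rps6ka3 120.6 and 338.8, and 174.9 and 201.1.

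**Figure D3:**
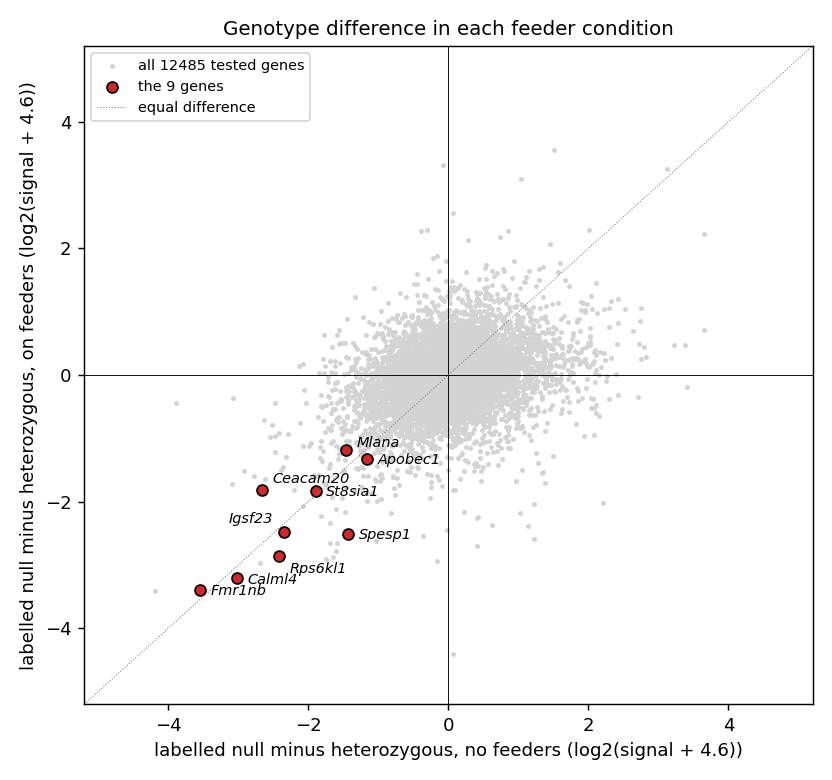
Log2 difference, labelled null minus heterozygous, without feeders (horizontal) against on feeders (vertical) for all 12485 tested genes in grey and the 9 genes in red, with a dotted line of equal difference. The 9 genes lie in the lower left, from Fmr1nb (-3.55 and -3.39) to Apobec1 (-1.17 and -1.32) and Mlana (-1.46 and -1.19), and Spesp1 and Ceacam20 lie farthest from the dotted line.

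Most of the 9 had like differences in the 2 feeder conditions. The difference on feeders minus that without was within 0.45 on the log2 scale for 7 genes, with Rps6kl1 at -0.45. It was -1.08 for Spesp1 and 0.85 for Ceacam20. The median size over the 9 was 0.19, against 0.30 over all tested genes, and genes that differ the same way in both conditions were what the list was chosen for. With 1 array per group these values have no test.

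The feeder difference itself was not used to choose the genes, but its error is not free of the choice. The residual of the model is the difference between the 2 genotype differences, and the list was chosen for genes alike in both conditions. The feeder p-values of the 9 genes are thus not independent of the choice. Calml4 rose on feeders, 2.76-fold in heterozygous and 2.42-fold in labelled-null cells. Its fitted log2 difference in the additive limma model was 1.37 (SE 0.20, adjusted p = 0.023 over all genes, higher in 2 of 2 pairs). Apobec1 had a similar size, 2.55-fold and 2.29-fold, with a fitted log2 difference of 1.27 (SE 0.29, limma adjusted p = 0.075), and did not pass. Calml4 was thus the 1 of 9 that passed, where 4.77% of tested genes did (3.88% higher and 0.881% lower on feeders), and 3 of 9 had an unadjusted limma p under 0.05, where 21.8% did. The Calml4 call was lost with no filter (limma adjusted p = 0.0714) and with no variance trend (limma adjusted p = 0.0739). Over the settings that kept the genotype term, the limma adjusted p ran from 0.023 to 0.0739. With the feeder term alone the limma adjusted p was 0.665. That model leaves out the genotype term, so the genotype difference Calml4 was chosen for enters its residual, and it is no check of the call. Leaving out 1 array used the same model, and the fitted difference then ran from -0.24 to 2.97. The model has 1 residual degree of freedom, which is the difference between the 2 pairs, and no replicate cultures. The eBayes step adds a variance shared with the other tested genes of like signal, with more weight than the gene's own residual. These p-values thus rest largely on the spread of other genes over the same 4 arrays, and not on the spread between replicate cultures.

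The other 7 genes did not pass the feeder test. St8sia1 had a fitted log2 feeder difference of 0.49 (SE 0.18) and Fmr1nb of 0.13 (SE 0.18). The values were 0.46 for Spesp1, 0.42 for Ceacam20 and 0.30 for Rps6kl1, and -0.34 for Igsf23 and -0.33 for Mlana, with limma adjusted p-values from 0.2 to 0.731 over all 7. By the brightest probe set, 5 of the 9 genes were higher on feeders in both genotypes and 2, Igsf23 and Mlana, were lower in both. The same directions were not counted over all tested genes. Other probe sets of Igsf23 and St8sia1 did not all share them. For Igsf23, 1430890_at rose from 19.2 to 40.5 in heterozygous cells, and 1444182_at from 1.1 to 1.9 in labelled-null cells. With the mean of probe sets the fitted feeder difference of Igsf23 was -0.05. For St8sia1, 1419694_at went from 83.3 to 80.7 in heterozygous cells. Some of these changes were small, as for Fmr1nb, with log2 differences of 0.05 in heterozygous and 0.21 in labelled-null cells.

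Fibroblast RNA moved with the feeder contrast. By limma 21 of 24 fibroblast markers rose on feeders, with a median log2 difference of 4.45, and Col3a1 went from 19.2 to 1992.4 in heterozygous and from 243.7 to 2776.5 in labelled-null cells. The part of feeder RNA in the rise of Calml4 was not tested. The gain of Calml4 on feeders was 222.6 signal units in heterozygous and 22.1 in labelled-null cultures. The summed fibroblast signal was higher on the labelled-null array of each pair. Vim, Fn1 and Acta2 were the largest terms of that sum on each array. Between genotypes the fibroblast markers had a median log2 difference of 1.14 without and 0.47 with feeders. In both conditions 0 of 24 were 2-fold lower and 2 of 24 were 2-fold higher, where 0.785% and 0.328% of all tested genes were. Limma called 0 of 24 for genotype, with 16 at an unadjusted p under 0.05 (12.3% of all tested genes). The 2 that were higher on the labelled-null arrays were Lum and Twist2, Lum at 1.3 and 17.3 without feeders, then 181.7 and 408.4 on feeders.

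**Figure D4:**
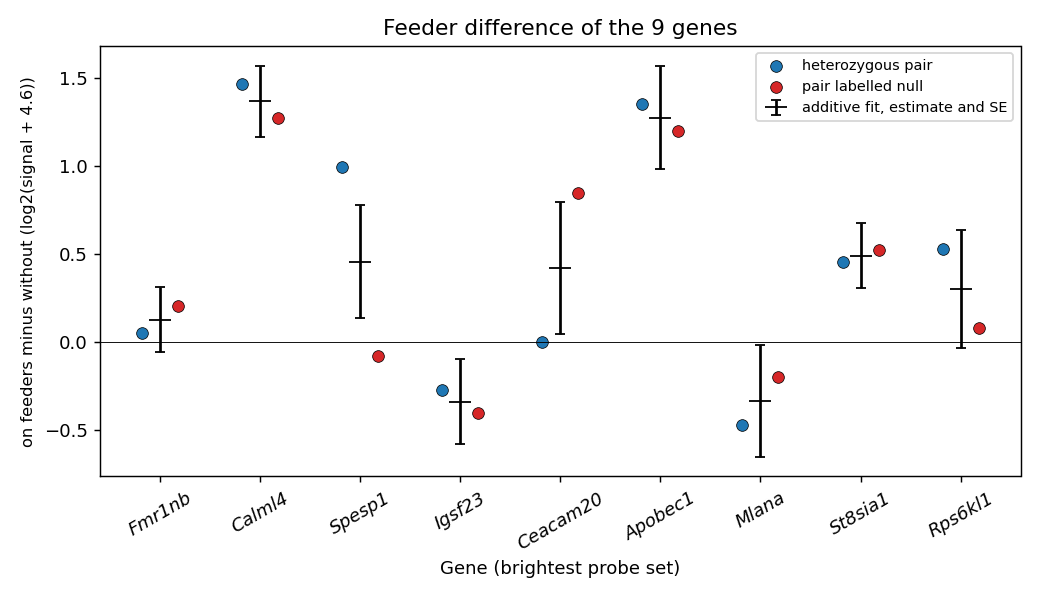
Log2 difference, on feeders minus without, of each of the 9 genes in the heterozygous pair (blue) and the pair labelled null (red), with the estimate and SE of the additive model in black. Calml4 (1.37) and Apobec1 (1.27) stand highest with close values in both pairs, and Spesp1 has a blue point at 1.00 and a red point at -0.08.

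Markers of cell types in which some of these genes are known were mostly dim. Of 15 listed markers of intestinal epithelium, 14 had a probe set and 3 were tested, and their summed signal lay between 66.4 and 174.5. The defining genes Vil1, Fabp2 and Apoa4 had at most 9.7, 5.6 and 5.0 on each array. Cdx2, a homeobox gene also of trophectoderm, read 17.1 and 82.2 without feeders, then 2.1 and 4.9 on feeders. The other tested markers were Lgals4, at 10.9 and 3.2 without feeders, then 17.1 and 13.6 on feeders, and Slc5a1, at 15.4 and 14.4, then 7.0 and 9.0. Of 16 spermatid and sperm markers 4 were tested, the protamine gene Prm2 had at most 9.9 and Tnp1 at most 3.6, and 0 were 2-fold lower or higher in both conditions. Odf2, also a centrosome gene, was the brightest of them, at 745 and 688.4 without feeders, then 445.6 and 535.8 on feeders. Of the other tested sperm markers, Ldhc read 19.1 and 1.2 without feeders, then 30.2 and 20.9 on feeders. Prm1, another protamine gene, had log2 differences of -1.58 without feeders and 0.64 on feeders, and Acrbp of -0.14 and 0.66. The median over the 4 tested sperm markers was -0.86 without feeders and 0.45 on feeders.

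For each of the 9 genes, the tested genes with the most similar pattern were those with the smallest root mean square difference in log2 values over the 4 arrays, after centring each gene on its mean. Mlana was nearest to Mageb16 (0.053) and 2210409E12Rik (0.076). St8sia1 was nearest to Fgf4 (0.081) and to Serpinb6c (0.086). Ceacam20 was nearest to Pnma5 (0.095) and Dppa3 (0.11), and Apobec1 to Gpt2 (0.074), an alanine aminotransferase gene, and Jakmip1 (0.11). Spesp1 was nearest to Gm20767 (0.12) and Pramel6 (0.15), and Igsf23 to Gm11544 (0.27) and Tmem40 (0.30).

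Fmr1nb was nearest to the homeobox gene Rhox5 (0.35) and to AF067061 (0.42), and Calml4 to the same genes, AF067061 (0.40) and Rhox5 (0.55). Rps6kl1 was nearest to AF067061 (0.19) and Usp17la (0.28). With 4 arrays such likeness is a description of these values only.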

How the data were processed

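Values for 45101 probe sets on 4 arrays were used as deposited: linear MAS5 signals (array intensity), scaled by the authors; per the submitters' processing notes the tool was MAS5, with no version given. Detection calls were not used here. The 64 control probe sets were left out. Of the rest, 34945 had 1 gene symbol, 932 had several and 9160 had none in the platform annotation; the latter kinds were not used.

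Signals were taken as log2(signal + 4.6), the 25th percentile of all signals, and the brightest probe set by mean log2 signal stood for its gene. Genes under the 40th percentile of mean log2 signal were left out, leaving 12485. Feeder and genotype terms were fitted additively with limma 3.58.1 in R 4.3.3 (eBayes with trend, two-sided, Benjamini-Hochberg adjustment over all tested genes, threshold 0.05). The number of arrays limits the precision. Flanking genes were the 3 nearest with a probe set on each side in the RefSeq table (GRCm38.p6).

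The members and lists were chosen with earlier results of these data known. Named genes were the 9 members, Sall4, Pou5f1, flanking genes past 2-fold in both conditions or between a pair, list members past 2-fold in both conditions or else up to 3 of the brightest, and the 2 most similar genes for each member; other flanking and marker genes were named after their values were seen. Alternatives covered the offset, filter, normalization, reading of a gene, variance trend, model and arrays.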

Additional observations from a re-analysis of the deposited data

Results flagged for a closer look

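Spesp1 moved in opposite directions with feeders in the 2 genotypes. Its log2 feeder difference was 1.00 in heterozygous cells and -0.081 in labelled-null cells, from 1 pair of arrays each, and the difference was not tested. The second value is a change from 17.3 to 16.1 in signal.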

How the results depend on the processing

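All 9 genes kept a lower signal on the labelled-null array in both feeder conditions under the 3 alternatives that recomputed it, namely the offset at the median signal, quantile normalization and the mean of probe sets. The count at least 2-fold lower in both was 9, and it was 7 with the offset at the median signal, where Apobec1 and Mlana fell short, 8 with the mean of probe sets, where Spesp1 fell short (log2 difference -0.29 without feeders), and 6 at a 3-fold threshold. The count of flanking genes lower in both stayed at 1 under each alternative tried. The number of genes called by feeders was 595, and became 384 with the mean of probe sets, 269 with no filter, 268 with a filter at the 60th percentile, 183 with no variance trend and 231 with the feeder term alone; leaving out 1 array at a time, which needed the feeder term alone, gave 23 to 534, the lowest without the labelled-null array on feeders. The cause of these changes was not tested. Leaving out 1 array also unbalances genotype against feeders, and since these genes differ by genotype, the feeder difference then takes in the genotype difference by construction. It ranged from -1.64 to 1.90 for Fmr1nb, -0.24 to 2.97 for Calml4, -0.80 to 1.71 for Spesp1, -1.58 to 0.90 for Igsf23, -0.91 to 1.76 for Ceacam20, -1.06 to 0.40 for Mlana, -0.46 to 1.44 for St8sia1 and -1.13 to 1.73 for Rps6kl1, while Apobec1 stayed above 0 (0.61 to 1.93). No paired analysis was possible because each group holds 1 array and the labels give no replicate numbers; the additive model already compares feeders within each genotype. Signals under the filter signal of 9.46 enter the folds of Ceacam20, Mlana and Rps6kl1, of Apobec1 without feeders and of Igsf23 on feeders. The reliability of such weak signals was not measured, so these folds are to be read with caution.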
